A study of Mus musculus with 12 samples.

Results

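The genes described here make, anchor and remodel the extracellular matrix of skeletal muscle: collagens, laminins, fibrillins, fibulins, lysyl oxidases, integrins, matrix metalloproteinases, ADAMTS proteins and TIMPs, with fibronectin (Fn1), Sparc and nidogen-1 (Nid1). They were chosen by name from the gene symbols of the expression table, and 71 of its 10475 genes qualified. A further 74 genes with such names appear in the authors' comparison tables but not in the expression table, and 48 of these are listed at 0 in all 6 ZT0 libraries. Each of the 10475 genes has at least 1.0 TPM (a level per transcript length, scaled to the same total in each library) in the library WT ZT0 replicate 1, so a gene that was low in that library could not be listed. The naming rule itself uses no measured value, but the set was proposed with earlier results of these data known. Shares of members set beside those of all genes are therefore descriptions.

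Poly(A) RNA of the gastrocnemius, the large calf muscle, was sequenced from 8-week-old C57BL/6 mice on chow, kept in 12 h light and 12 h dark. The 4 groups had 3 libraries each: TG at ZT12, TG at ZT0, WT at ZT12 and WT at ZT0. TG mice carry a transgene that overexpresses the transcription factor E4BP4 (gene Nfil3) in the liver only, and WT mice are wild type. ZT0 is the time of lights on and ZT12 the time of lights off. The labels do not name the promoter of the transgene, the sex of the mice or whether each library is a separate mouse, so p-values measure only the spread between these libraries. Because the transgene is active in liver, muscle RNA does not check the genotype labels: Nfil3 averaged 13.5 ± 6.65 TPM in TG ZT12 muscle and 11.8 ± 3.79 TPM in WT ZT12 muscle, and 16.04 ± 3.72 TPM in TG ZT0 muscle and 17.2 ± 1.42 TPM in WT ZT0 muscle (SD, n = 3 each).

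The depth, recovered as whole reads from the TPM values, was 13126327 to 15780301 reads in TG ZT12 libraries, 10388087 to 11451635 in TG ZT0 libraries, 17715533 to 20157291 in WT ZT12 libraries and 9213368 to 13149151 in WT ZT0 libraries. ZT12 libraries were therefore the deeper ones (r = 0.85 between log2 depth and time over 12 libraries), and a difference of time and a difference of depth cannot be told apart by a model. No listed member was at 0 in any library, and the median member had 271 to 718 reads per library. Muscle fibre markers were present in every library, with skeletal actin (Acta1) at a mean of 23590 TPM. None of the 4 hepatocyte, 8 lymphocyte or 5 neutrophil markers is among the listed genes. A gene that was low in WT ZT0 replicate 1 could not be listed, so the levels of these markers in the other libraries are not known. The libraries did not all stand together: 2 stood apart, as the plot of library medians shows. WT ZT0 replicate 2 had a median correlation of 0.946 with the other libraries and a median gene at 9.26 TPM. TG ZT12 replicate 1 was the lowest library, with the median member 0.42 and the median gene 0.29 below its own 12-library mean on the log2 scale. The main results that rest on either library are given with and without it.

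**Figure D1:**
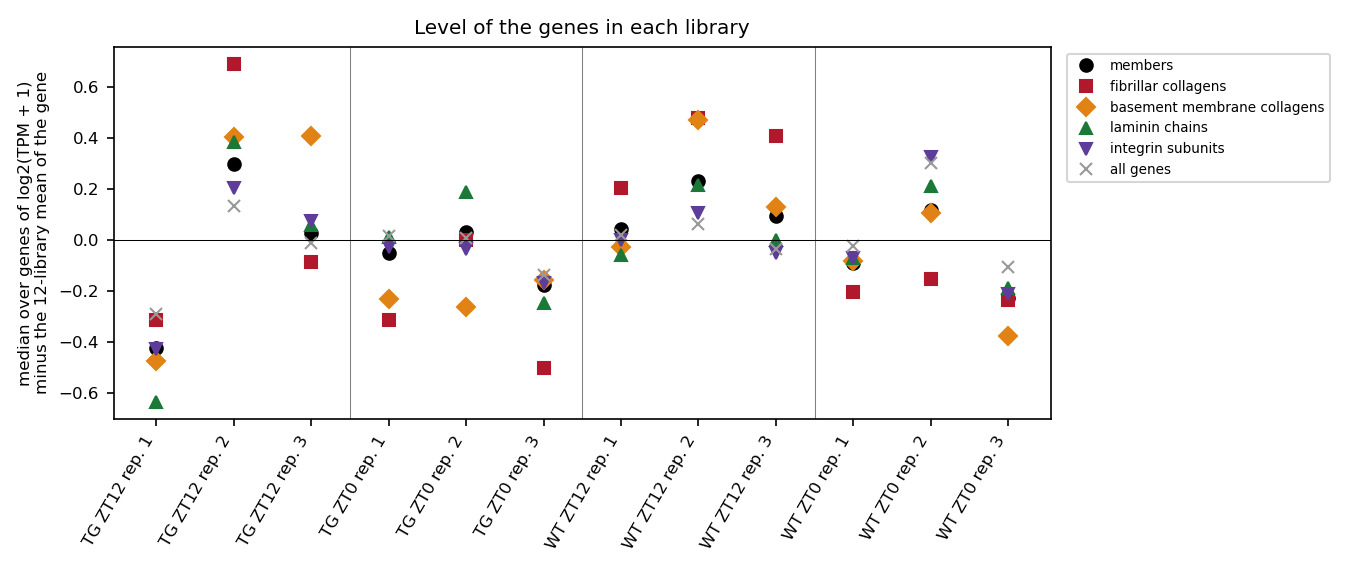
Median deviation of log2(TPM + 1) from each gene's 12-library mean, for all listed genes, the 71 members and 4 groups of members, in each of 12 libraries (replicate 1 to 3 within each group). TG ZT12 replicate 1 is the lowest for the members (-0.42) and TG ZT12 replicate 2 the highest (0.30), so that replicates of 1 group span the range of all libraries.

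In muscle, each fibre is wrapped in a basement membrane of laminin and type IV collagen, which integrins and dystroglycan tie to the cytoskeleton. Outside it, fibrillar collagens I, III and V, made mainly by fibroblasts and fibro-adipogenic cells, carry force between fibres and to tendon. Fibrillins and fibulins build microfibrils and elastic fibres, lysyl oxidases crosslink the collagen, and metalloproteinases cut matrix proteins under control of the TIMP inhibitors.

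The members covered a wide range of levels, which the plot of levels by role shows. Sparc, a collagen-binding glycoprotein, was the highest with a mean of 233.8 TPM over the 12 libraries. Col3a1, the chain of type III collagen, followed at 131.7 TPM, and then the type I chains Col1a2 and Col1a1. Those 4 genes held 45.9% of the summed member TPM. A total of 6 members averaged 50 TPM or more, 17 lay from 10 to under 50, 34 from 2 to under 10 and 14 under 2 TPM. By role, the 6 fibrillar collagens held 27.9% of the member TPM, the 3 glycoproteins 22.7%, the 15 integrin subunits 10.1% and the 3 TIMPs 7.50%. Together the members made up 0.203% to 0.350% of the listed TPM, with both extremes in TG ZT12 libraries (889.3 TPM in replicate 1 and 1576 TPM in replicate 2). The lowest member was Col7a1, the anchoring fibril collagen, at 0.879 TPM.

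**Figure D2:**
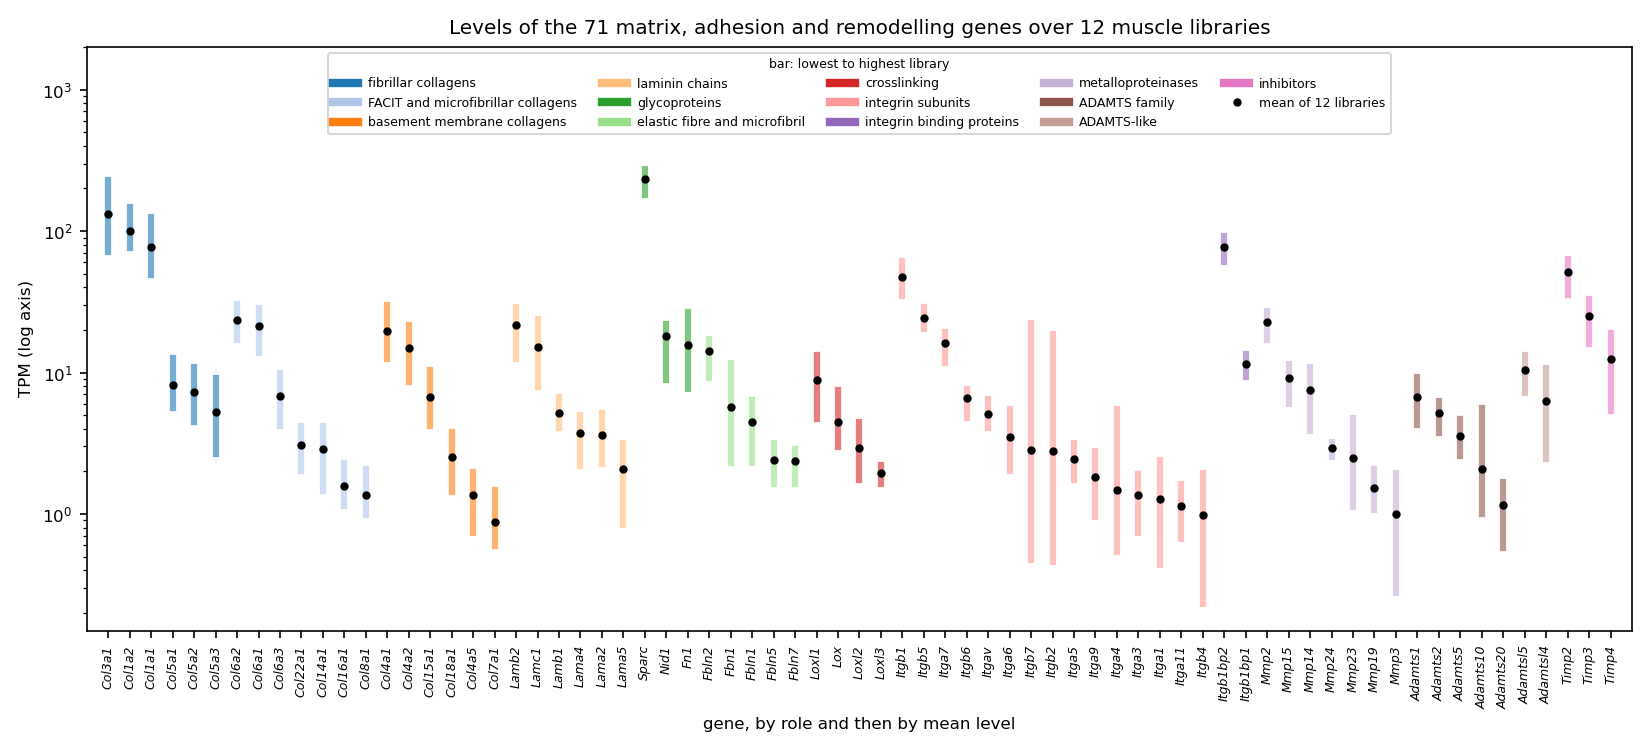
Mean TPM over 12 libraries (black points, log axis) with the range from the lowest to the highest library (bars), for the 71 members in order of role and level. Sparc (233.8 TPM) and the collagen chains Col3a1, Col1a2 and Col1a1 lead, and the longest bars, of Itgb7 and Itgb2, come from 1 library.

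Members that passed a test did so between times of day. All 71 passed the filter of at least 1 TPM in at least 3 libraries. Between ZT12 and ZT0 over both genotypes, 5 of 71 members passed the test (7.04%), beside 0.883% of the 10415 genes tested (limma on log2(TPM + 1), Benjamini-Hochberg adjusted p under 0.05). Col5a3, Fbn1 and Loxl2 were higher at ZT12 (0.355% of all genes were called higher), and Timp4 and Adamtsl4 were lower (0.528% were called lower). In bulk muscle, more RNA per cell and more cells of a type cannot be told apart. The promoters of 4 of these 5 genes are in the RefSeq table used (assembly GRCm38.p6, mm10), which matched 51 of the 71 members, and they are shown because their genes carry the time-of-day result. Each runs 5′ to 3′ on the gene's strand from 250 bases before to 50 bases after the annotated start, with matches to a GC box (GGGCGG) or a CCAAT box (CCAAT) on either strand in capitals.
Col5a3: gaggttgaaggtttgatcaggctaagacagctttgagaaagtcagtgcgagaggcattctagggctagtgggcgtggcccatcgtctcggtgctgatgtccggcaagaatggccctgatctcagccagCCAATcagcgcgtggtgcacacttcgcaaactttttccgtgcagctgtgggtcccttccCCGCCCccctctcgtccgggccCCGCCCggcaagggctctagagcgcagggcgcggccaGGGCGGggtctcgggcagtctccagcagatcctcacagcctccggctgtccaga
Fbn1: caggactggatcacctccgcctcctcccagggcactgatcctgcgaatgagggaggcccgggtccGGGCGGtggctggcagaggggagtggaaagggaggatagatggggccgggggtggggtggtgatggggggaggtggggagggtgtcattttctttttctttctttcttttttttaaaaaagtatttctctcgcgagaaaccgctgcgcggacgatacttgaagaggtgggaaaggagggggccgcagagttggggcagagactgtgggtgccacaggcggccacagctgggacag
Timp4: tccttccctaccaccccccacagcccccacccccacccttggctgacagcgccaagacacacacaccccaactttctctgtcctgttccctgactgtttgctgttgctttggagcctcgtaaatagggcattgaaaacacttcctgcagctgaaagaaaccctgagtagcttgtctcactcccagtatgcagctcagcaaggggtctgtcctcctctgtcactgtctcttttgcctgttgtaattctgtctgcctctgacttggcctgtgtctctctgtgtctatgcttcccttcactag
Adamtsl4: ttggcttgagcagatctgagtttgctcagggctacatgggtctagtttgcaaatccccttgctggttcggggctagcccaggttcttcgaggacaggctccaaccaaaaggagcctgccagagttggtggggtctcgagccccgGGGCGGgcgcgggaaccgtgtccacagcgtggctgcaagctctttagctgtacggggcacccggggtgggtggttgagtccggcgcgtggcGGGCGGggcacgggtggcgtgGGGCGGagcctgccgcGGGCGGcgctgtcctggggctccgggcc
These windows lie at chr9:20815018-20815317 (Col5a3), chr2:125506389-125506688 (Fbn1), chr6:115252156-115252455 (Timp4) and chr3:95687868-95688167 (Adamtsl4), all on the minus strand. The window of Timp4 begins from a RefSeq start that lies 356 bases from the start in the authors' files. Col5a3 had 3 GC boxes and 1 CCAAT box, Fbn1 had 1 GC box, Adamtsl4 had 4 GC boxes and Timp4 had none of either. A GC box was found in 35 of 51 member promoters (68.6%) and in 35.6% of all 32817 promoters of the table, and a CCAAT box in 15 of 51 (29.4%) and in 37.4% of all. The letters of elements bound by circadian regulators were rare: the E-box CACGTG and the D-box core TTANNTAA, the kind of element E4BP4 binds, were each found in 1 member promoter, that of Fbln1 (1.96%, beside 7.15% and 6% of all promoters), and TAGGTCA, the core bound by ROR and REV-ERB receptors, in that of Adamtsl5 (2.61% of all). TATAAA was found in 3 member promoters (5.88%, beside 13.6% of all), those of Adamts1, Col3a1 and Mmp3. None of these 4 elements was found in the windows printed above.

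Col5a3, which encodes a chain of type V collagen, the minor collagen that sets fibril width, lies at chr9:20770057-20815067 on the minus strand. Its level was 5.11, 9.09 and 8.66 TPM in TG ZT12 muscle, against 2.73, 2.84 and 2.64 TPM in TG ZT0 muscle. In WT muscle it was 7.01, 9.18 and 6.99 TPM at ZT12, against 2.86, 3.196 and 2.64 TPM at ZT0. All 6 ZT12 libraries lay above all 6 ZT0 libraries, and the lowest of them was TG ZT12 replicate 1. The mean was 7.67 ± 1.59 TPM at ZT12 and 2.82 ± 0.208 TPM at ZT0 (SD, n = 6 each), a ratio of 2.72, and on the log2(TPM + 1) scale, which understates changes of low genes, the difference was 1.16 ± 0.14 (SE, limma adjusted p = 0.00155).

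Fbn1 encodes fibrillin-1, the main protein of microfibrils, which also bind latent TGF-beta. Its level was 4.34, 11.6 and 7.49 TPM in TG ZT12 muscle, against 2.94, 3.42 and 2.31 TPM in TG ZT0 muscle. In WT muscle it was 8.09, 10.2 and 9.62 TPM at ZT12, against 2.76, 3.10 and 2.77 TPM at ZT0. The 2 times did not overlap, although TG ZT12 replicate 1 came near the ZT0 libraries. The mean was 8.56 ± 2.54 TPM at ZT12 and 2.88 ± 0.372 TPM at ZT0 (SD, n = 6 each), a ratio of 2.97 and a log2 difference of 1.25 ± 0.18 (SE, limma adjusted p = 0.00580). In GENCODE M21, 20.3% of the exon bases of Fbn1 are shared with exons of Gm9913 on the other strand, and the library kit does not mark strand, so reads of the 2 genes cannot be told apart there. Fbn1 was 1 of 5 members with over 10% of their exon bases shared in this way, with Loxl3, Itgb1bp1, Mmp19 and Mmp24.

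Loxl2 encodes a lysyl oxidase-like enzyme that crosslinks collagen, including that of basement membranes. Its level was 2.71, 4.13 and 2.97 TPM in TG ZT12 muscle, against 2.07, 1.79 and 2.32 TPM in TG ZT0 muscle. In WT muscle it was 4.18, 4.45 and 4.18 TPM at ZT12, against 2.27, 1.75 and 2.09 TPM at ZT0. The times did not overlap, and the 3 WT ZT12 libraries were the highest. The log2 difference was 0.64 ± 0.11 (SE, limma adjusted p = 0.0181). This call was lost when any 1 of 5 libraries was left out (TG ZT0 replicate 1 or 2, or any WT ZT12 replicate), with an adjusted p of up to 0.074. Of its exon bases, 5.57% are shared with Gm27177 on the other strand.

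Timp4 encodes the TIMP that is found mainly in heart and skeletal muscle. It had 5.30, 9.81 and 7.32 TPM in TG ZT12 muscle, against 17.4, 13.4 and 16.2 TPM in TG ZT0 muscle. In WT muscle it had 6.80, 10.6 and 10.6 TPM at ZT12, against 16.5, 16.5 and 19.1 TPM at ZT0. Every ZT12 library lay below every ZT0 library. The mean was 8.41 ± 2.24 TPM at ZT12 and 16.5 ± 1.86 TPM at ZT0 (SD, n = 6 each), a ratio of 0.510 and a log2 difference of -0.92 ± 0.15 (SE, limma adjusted p = 0.0113). Timp4 lies within Syn2 on the opposite strand, and 1.53% of its exon bases are shared with exons of that gene.

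Adamtsl4 encodes an ADAMTS-like protein, which has no protease domain and binds fibrillin-1 microfibrils. It had 2.45, 5.20 and 3.18 TPM in TG ZT12 muscle, against 9.996, 8.64 and 5.97 TPM in TG ZT0 muscle. In WT muscle it had 4.63, 4.08 and 3.995 TPM at ZT12, against 8.08, 10.7 and 9.09 TPM at ZT0. The times did not overlap here either, the nearest libraries being TG ZT12 replicate 2 and TG ZT0 replicate 3. The mean was 3.92 ± 0.987 TPM at ZT12 and 8.75 ± 1.66 TPM at ZT0 (SD, n = 6 each), a ratio of 0.448 and a log2 difference of -0.99 ± 0.16 (SE, limma adjusted p = 0.0113).

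**Figure D3:**
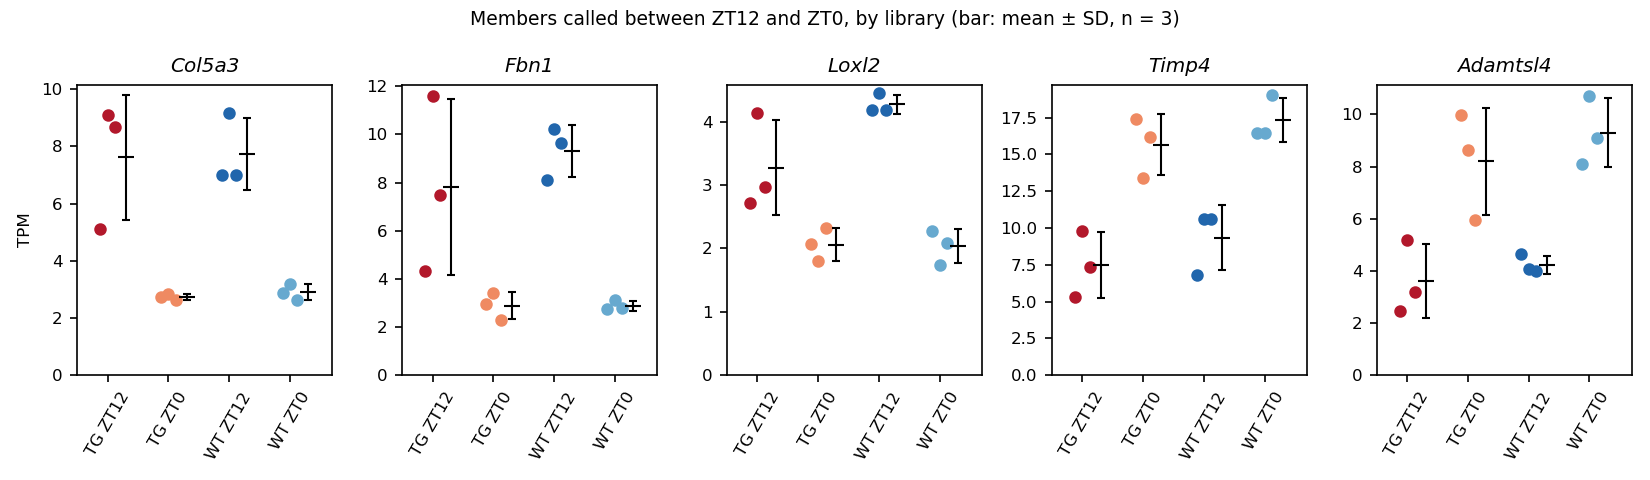
TPM of Col5a3, Fbn1, Loxl2, Timp4 and Adamtsl4 in each library, with the mean and SD of each group of 3 (axes start at 0). For each gene the 6 ZT12 libraries and the 6 ZT0 libraries do not overlap; for Col5a3 the lowest ZT12 library has 5.11 TPM and the highest ZT0 library 3.196 TPM.

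The calls rested on 113 to 2303 reads per library, the fewest for Loxl2 (113 to 526) and the most for Fbn1 (303 to 2303). Ratios of 2 members within a library do not depend on its scaling. Col5a3 over Col5a1, another type V chain, was 0.655 to 1.06 at ZT12 and 0.325 to 0.482 at ZT0. Fbn1 over Fbln2 was 0.473 to 0.692 at ZT12 and 0.166 to 0.230 at ZT0, and Loxl2 over Loxl3 was 1.29 to 2.35 at ZT12 and 0.813 to 1.27 at ZT0. Timp4 over Timp2 was 0.108 to 0.195 at ZT12 and 0.236 to 0.425 at ZT0, and Adamtsl4 over Adamtsl5 was 0.263 to 0.446 at ZT12 and 0.697 to 1.014 at ZT0. In none of these 5 ratios did the times overlap. The upper genes were the 5 called by time, and the lower ones were picked after their values were seen. The lack of overlap is therefore a description and no separate test. Timp4 over Timp3 was 0.267 to 0.539 at ZT12 and 0.450 to 0.691 at ZT0, so in that ratio they did overlap. With log2 depth as a covariate, a model chosen after seeing the data, none of the 71 members was called (limma adjusted p of 0.239 to 0.285 for the 5), and the log2 differences were 0.88 for Col5a3, 0.83 for Fbn1, 0.65 for Loxl2, -1.20 for Timp4 and -1.46 for Adamtsl4. In that fit the median gene lay at -0.38 between ZT12 and ZT0. The 2 libraries nearest in depth across the times were TG ZT12 replicate 1 (13126327 reads) and WT ZT0 replicate 2 (13149151 reads), also chosen after seeing the data. This pair holds 1 library per time, of different genotypes, and both are the ones that stood apart, so in it time, genotype and the offset of each library cannot be told apart. In it Col5a3 had 5.11 against 3.196 TPM, Fbn1 4.34 against 3.10, Loxl2 2.71 against 1.75, Timp4 5.30 against 16.5 and Adamtsl4 2.45 against 10.7.

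Marker sums of other cell types differed between libraries. The 7 erythroid markers summed to 4198, 6519 and 205.4 TPM in TG ZT12 muscle against 159.0 to 217.4 TPM in TG ZT0 muscle, and to 2155, 6215 and 255.1 TPM in WT ZT12 muscle against 124.3 to 233.9 TPM in WT ZT0 muscle. Replicate 3 of both ZT12 groups thus had an erythroid sum near that of ZT0, and in these 2 libraries Col5a3 was at 8.66 (TG) and 6.99 TPM (WT), Fbn1 at 7.49 and 9.62, Loxl2 at 2.97 and 4.18, Timp4 at 7.32 and 10.6 and Adamtsl4 at 3.18 and 3.995. The 6 tenocyte markers listed of 8 summed to 66.76 to 92.13 TPM in TG ZT12 muscle against 52.07 to 112.1 in TG ZT0 muscle, and to 99.56 to 192.7 TPM in WT ZT12 muscle against 74.77 to 83.30 in WT ZT0 muscle. The tenocyte markers had a median log2 difference between ZT12 and ZT0 of 0.68 in WT muscle, 0.23 in TG muscle and 0.46 over both genotypes. In WT muscle 4 of 6 had an unadjusted p under 0.05 (4.65% of all genes did), in TG muscle 0 of 6, and limma called 0 of them. The 8 fibro-adipogenic markers summed to 705.4 to 842.0 TPM in TG ZT12 muscle against 762.0 to 982.0 in TG ZT0 muscle, and to 857.2 to 949.1 TPM in WT ZT12 muscle against 699.3 to 802.1 in WT ZT0 muscle. Their median log2 difference was 0.31 in WT muscle, with 8 of 8 above 0, -0.11 in TG muscle, with 3 of 8 above 0, and 0.09 over both genotypes. Limma called 0 of them. The 6 Schwann cell markers listed of 8 summed to 27.81, 55.73 and 126.1 TPM in TG ZT12 muscle against 88.03 to 146.7 in TG ZT0 muscle, and to 71.92 to 128.1 TPM in WT ZT12 muscle against 97.39 to 124.0 in WT ZT0 muscle. The median log2 difference of the Schwann markers was -0.83 in TG muscle, with 4 of 6 at an unadjusted p under 0.05 (3.53% of all genes). It was -0.10 in WT muscle and -0.45 over both genotypes, and limma called 0 of them. The 7 adipocyte markers summed to 233.3 to 704.0 TPM in TG ZT12 muscle against 217.0 to 565.9 in TG ZT0 muscle, and to 311.7 to 423.8 TPM in WT ZT12 muscle against 299.2 to 657.2 in WT ZT0 muscle, where replicate 2 was the highest. Over both genotypes the median log2 difference was 3.11 for the erythroid markers and -0.19 for the adipocyte markers. There 7 of 7 erythroid and 0 of 7 adipocyte markers had an unadjusted limma p under 0.05 (6.8% of all genes did). After adjustment limma called 0 of either. The part of these 5 marker lists in the time-of-day differences was not tested.

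The other members are given by role, with the time-of-day difference over both genotypes, and none of them passed the test. Across all 71 members the median log2 difference was 0.11, beside -0.03 for all genes, and 51 members had a value above 0. That median was 0.19 without TG ZT12 replicate 1, beside 0.02 for all genes. It was 0.06 (-0.07 for all genes) without TG ZT12 replicate 2 and 0.07 (-0.07) without WT ZT0 replicate 3. The groups did not overlap for 7 of 71 members (9.86%), beside 1.53% of all genes: Adamts5 and Itgb5 joined Col5a3, Fbn1 and Loxl2 as higher at ZT12 in all 6 libraries (0.538% of all genes), and the 2 lower ones were those called (0.989%). The plot of time-of-day differences shows all 71 values.

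**Figure D4:**
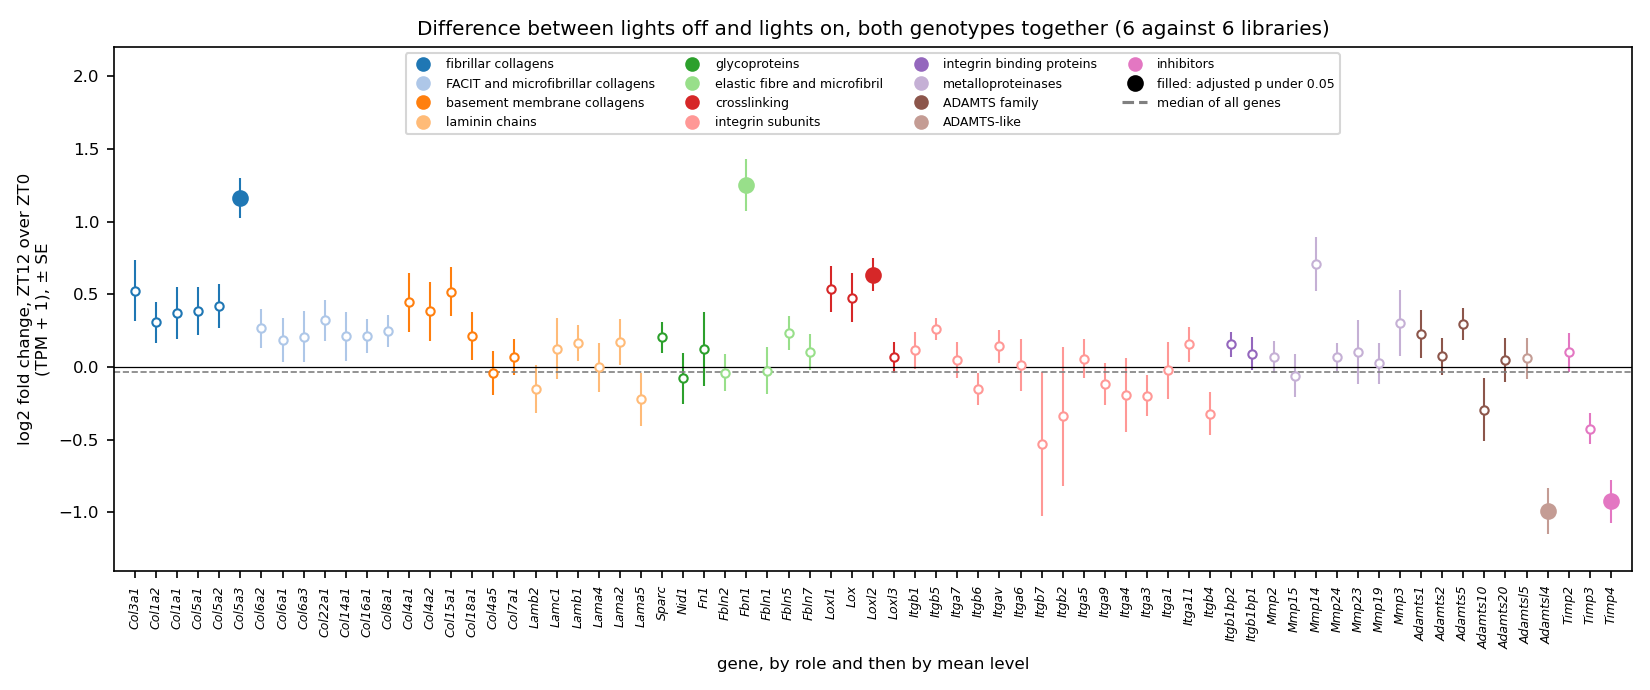
Log2 fold change of TPM + 1 at ZT12 over ZT0 across both genotypes (6 against 6 libraries) with its SE, for the 71 members by role. The filled points are the 5 called members (Col5a3 1.16, Fbn1 1.25, Loxl2 0.64, Timp4 -0.92 and Adamtsl4 -0.99), and the dashed line is the median of all genes (-0.03).

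Among fibrillar collagens, the other 5 chains had log2 differences of 0.31 to 0.53. Col3a1, the largest of these, had 103.8, 230.0 and 108.1 TPM in TG ZT12 muscle, against 104.6, 133.6 and 71.2 TPM in TG ZT0 muscle, and 123.5, 194.3 and 185.9 TPM in WT ZT12 muscle, against 110.5, 107.7 and 107.6 TPM in WT ZT0 muscle. In WT muscle the times did not overlap, and in TG muscle replicate 2 was the single ZT12 library above the ZT0 range. Col1a1 averaged 88.0 ± 27.4 TPM at ZT12 and 65.1 ± 5.68 TPM at ZT0 (SD, n = 6 each). The ratio of the type I chains, Col1a2 over Col1a1, was 1.34 to 1.37 at ZT0. It was wider at ZT12, from 1.17 to 1.57, with TG ZT12 replicate 1 the highest. The smallest adjusted p of the 5 chains was 0.463 (limma, Col5a2).

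Type VI collagen forms beaded filaments next to the basement membrane, and the FACIT collagens sit on fibril surfaces. The 7 members of this role had log2 differences of 0.19 to 0.32. Col6a2, the highest, averaged 26.1 ± 5.15 TPM at ZT12 and 21.2 ± 1.71 TPM at ZT0 (SD, n = 6 each), and Col6a2 over Col6a1 stayed at 0.991 to 1.30. Col14a1, a FACIT collagen, had 1.68, 3.704 and 2.06 TPM in TG ZT12 muscle, against 3.08, 3.00 and 1.45 TPM in TG ZT0 muscle, and 3.61, 3.87 and 4.17 TPM in WT ZT12 muscle, against 2.83, 2.60 and 2.38 TPM in WT ZT0 muscle. Its times overlapped in TG muscle and did not overlap in WT muscle.

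Col4a1 and Col4a2, the major chains of type IV collagen, are transcribed in opposite directions from starts 21 bases apart on chromosome 8. Their ratio lay between 1.23 and 1.45 in all 12 libraries. Col4a1 had 12.5, 29.8 and 28.8 TPM in TG ZT12 muscle, against 14.96, 15.6 and 15.6 TPM in TG ZT0 muscle, and 17.9, 30.2 and 20.2 TPM in WT ZT12 muscle, against 16.3, 21.2 and 13.6 TPM in WT ZT0 muscle. TG ZT12 replicate 1 lay below all TG ZT0 libraries and the other two TG ZT12 libraries far above them, so the times overlapped. Col15a1, a multiplexin of the outer basement membrane, averaged 8.12 ± 1.97 TPM at ZT12 and 5.29 ± 0.945 TPM at ZT0 (SD, n = 6 each), with a log2 difference of 0.52 ± 0.17 (SE, limma adjusted p = 0.317). Without TG ZT12 replicate 1, both Col15a1 and Col4a2 were called, and 7 of 71 members in all. In that fit 157 of 10415 genes were called, in place of 92.

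The 6 laminin chains had log2 differences of -0.22 to 0.17, with the widest gap from 0 for Lama5, and their times overlapped in all cases over both genotypes. Lamb2, the beta chain of synaptic laminins, averaged 20.6 ± 5.30 TPM at ZT12 and 22.5 ± 3.19 TPM at ZT0 (SD, n = 6 each). Lama2, the chain mutated in congenital muscular dystrophy, had 2.24, 5.201 and 3.72 TPM in TG ZT12 muscle, against 3.40, 4.31 and 2.57 TPM in TG ZT0 muscle, and 3.86, 4.598 and 3.99 TPM in WT ZT12 muscle, against 3.04, 3.47 and 3.23 TPM in WT ZT0 muscle. Of the glycoproteins, Sparc averaged 250.3 ± 32.3 TPM at ZT12 and 217.2 ± 29.4 TPM at ZT0 (SD, n = 6 each), and Fn1, whose protein bridges integrins and collagen, averaged 16.9 ± 7.17 TPM at ZT12 and 14.5 ± 3.01 TPM at ZT0 (SD, n = 6 each). Nid1, which links laminin to type IV collagen, had a log2 difference of -0.08.

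In the elastic fibre group, Fbn1 stood beside 4 fibulins with log2 differences of -0.04 to 0.23. Fbln2, the highest of them, averaged 14.1 ± 3.26 TPM at ZT12 and 14.2 ± 0.941 TPM at ZT0 (SD, n = 6 each). Of the crosslinking enzymes, Loxl1, needed for elastin renewal, averaged 10.7 ± 2.42 TPM at ZT12 and 7.04 ± 1.38 TPM at ZT0 (SD, n = 6 each), a log2 difference of 0.54 ± 0.16 (SE, limma adjusted p = 0.230). Lox, the founding member, had 3.19, 7.49 and 3.59 TPM in TG ZT12 muscle, against 2.96, 4.48 and 3.27 TPM in TG ZT0 muscle, and 6.36, 6.00 and 6.19 TPM in WT ZT12 muscle, against 3.19, 3.88 and 3.41 TPM in WT ZT0 muscle. Lox was thus apart by time in WT muscle and overlapped in TG muscle, where replicate 2 was the single high ZT12 library. Loxl3 had a log2 difference of 0.07.

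The integrin subunits averaged from 0.979 TPM (Itgb4) to 47.5 TPM (Itgb1). Itgb1, the common beta chain, averaged 49.7 ± 9.48 TPM at ZT12 and 45.2 ± 4.28 TPM at ZT0 (SD, n = 6 each), and Itga7, the laminin-binding partner of Itgb1 in muscle fibres, stayed at 0.293 to 0.411 of the Itgb1 level. Itgb5, the beta chain of a vitronectin receptor, ranged from 23.4 to 29.0 TPM at ZT12 with a median of 26.6, and from 20.3 to 23.3 TPM at ZT0 with a median of 21.8, without overlap. Its log2 difference was 0.26 ± 0.07 (SE, limma adjusted p = 0.200). Itgb1bp2 (melusin, a muscle chaperone that binds the beta-1 tail), which matches the naming rule without being an integrin subunit, averaged 80.9 ± 9.13 TPM at ZT12 and 72.3 ± 6.38 TPM at ZT0 (SD, n = 6 each).

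For 3 integrin chains of leukocytes, 1 library stood far above the others. Itgb7 had 22.5 TPM in WT ZT0 replicate 2 and 0.475 to 1.59 TPM in the other 11 libraries. Itgb2 had 18.6 TPM there and 0.456 to 2.99 TPM elsewhere, and Itga4 had 5.52 TPM there and 0.538 to 1.49 TPM elsewhere. The 8 macrophage markers summed to 302.2 TPM in that library, 202.7 of it from Lyz2, and to 61.07 to 188.2 TPM in the others. Lyz2, Cd68, Csf1r, C1qa and C1qb were highest there, and Adgre1 was highest in TG ZT12 replicate 2. Mrc1 (2.77 TPM, 12-library mean 3.30) and Cd163 (2.26 TPM, mean 2.73) lay below their means in WT ZT0 replicate 2. The part of these markers in the integrin levels was not tested. Lymphocyte and neutrophil markers are not listed, so none could be set beside these integrins.

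Among the metalloproteinases, Mmp2 (gelatinase A) was the highest, with 23.3 ± 3.704 TPM at ZT12 and 22.0 ± 2.67 TPM at ZT0 (SD, n = 6 each). Mmp14, the membrane-bound enzyme that activates pro-Mmp2, had 8.46, 9.86 and 8.64 TPM in TG ZT12 muscle, against 4.59, 5.80 and 5.02 TPM in TG ZT0 muscle, and 8.77, 9.75 and 10.97 TPM in WT ZT12 muscle, against 4.13, 10.4 and 3.89 TPM in WT ZT0 muscle. Every library of ZT12 lay above every library of ZT0 but WT ZT0 replicate 2, and the log2 difference was 0.71 ± 0.19 (SE, limma adjusted p = 0.152). Without both WT ZT0 replicate 2 and TG ZT12 replicate 1, Mmp14 was among 15 of 71 members called, beside 420 of 10397 genes. With all libraries 92 genes were called. The 5 ADAMTS proteases had log2 differences of -0.29 to 0.29. Adamts5, an aggrecan- and versican-cutting protease, ranged from 3.53 to 4.72 TPM at ZT12 with a median of 3.81 and from 2.56 to 3.51 TPM at ZT0 with a median of 3.07, again without overlap (log2 difference 0.29 ± 0.11, SE, limma adjusted p = 0.482).

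The TIMPs differed in level and direction. Timp3, which stays bound to the matrix and lies within Syn3 on the opposite strand, had 15.96, 21.7 and 21.5 TPM in TG ZT12 muscle, against 29.0, 29.7 and 27.8 TPM in TG ZT0 muscle, and 25.4, 19.6 and 22.9 TPM in WT ZT12 muscle, against 24.4, 33.2 and 27.6 TPM in WT ZT0 muscle. The times were apart in TG muscle and overlapped in WT muscle, and the log2 difference was -0.42 ± 0.11 (SE, limma adjusted p = 0.128). Timp2, the most abundant, averaged 53.5 ± 11.6 TPM at ZT12 and 49.1 ± 6.57 TPM at ZT0 (SD, n = 6 each). With median-of-ratios scaling, upper-quartile scaling or limma-voom on the recovered reads, Timp3, Mmp14 and Loxl1 were called too, which made 8 members. The genes called in all were then 204, 191 and 194 in that order, in place of 92.

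Within each genotype the test had 3 libraries against 3. In TG muscle 1 of 71 members was called, Col5a3, with a log2 difference of 1.17 (limma adjusted p = 0.0360), beside 0.154% of all genes and 0.0384% called higher. That call held in 2 of the 12 fits that left out 1 library (TG ZT12 replicate 1 or WT ZT0 replicate 2) and was lost without any 1 of the other 10, with an adjusted p of up to 0.211. In WT muscle 0 of 71 members were called by limma, beside 0.115% of all genes (0.0192% called higher and 0.096% called lower). There 17 members had an unadjusted p under 0.05 (4.65% of all genes did), and limma-voom called 4, beside 56 of 10415 genes. The smallest limma adjusted p-values in WT muscle were 0.0503 for Col5a3, 0.0654 for Fbn1 and 0.0901 for Loxl2. The groups did not overlap for 10 of 71 members in TG muscle (14.1%, beside 7.08% of all genes), of which 6 were higher (3.21% of all genes) and 4 lower (3.87%) at ZT12. In WT muscle 26 of 71 did not overlap (36.6%, beside 10.8% of all genes), 23 of them higher at ZT12 (5.62% of all genes), among them all 6 fibrillar collagens, and 3 lower (5.2%). The member median was 0.08 in TG muscle, beside -0.01 for all genes, and 0.20 in WT muscle, beside -0.05 for all genes. The TG median rested on single libraries. Without TG ZT12 replicate 1 it was 0.23 (0.10 for all genes), with 59 of 71 members above 0 in place of 43. In that fit 21 members had an unadjusted limma p under 0.05 in place of 7, beside 731 of all genes in place of 368. Without TG ZT12 replicate 2 the TG median was -0.08 (-0.10 for all genes). The WT median was 0.13 (-0.13 for all genes) without WT ZT0 replicate 3 and 0.27 (0.08) without WT ZT0 replicate 2.

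**Figure D5:**
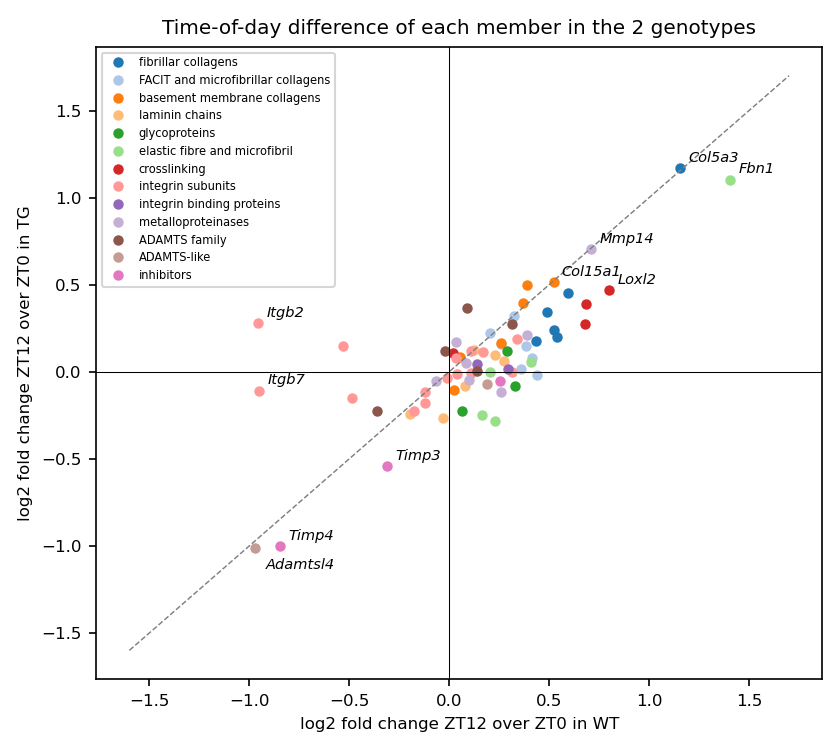
Log2 fold change of TPM + 1 at ZT12 over ZT0 in TG muscle (y axis) and in WT muscle (x axis) for each of the 71 members, coloured by role, with the line of equal change. Col5a3 (1.17 in TG, 1.16 in WT) lies on the line and Fbn1 (1.10 in TG, 1.41 in WT) below it.

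The difference between genotypes in the time effect was tested as an interaction, and limma called 0 of 71 members and 0 of 10415 genes; 0 members had an unadjusted p under 0.05, as did 0.663% of all genes. The member median of the interaction was -0.13, beside 0.03 for all genes. Its sign rested on 1 library: without TG ZT12 replicate 1 it was 0.05, with 44 of 71 members above 0, beside 0.15 for all genes. Without TG ZT12 replicate 2 it was -0.28, beside -0.06 for all genes. In that fit 12 of 70 members had an unadjusted limma p under 0.05, beside 163 of 10408 genes. With all libraries and median-of-ratios scaling the member median was -0.15, beside 0.006 for all genes. With upper-quartile scaling it was -0.17, beside -0.02. With median-of-ratios scaling and without TG ZT12 replicate 1 and WT ZT0 replicate 2 it was -0.06, beside -0.003. The smallest unadjusted p of a member was 0.114, for Mmp2 (limma adjusted p = 1.00). The interaction of Col5a3 was 0.02 with a 95% interval of -0.58 to 0.61, and that of Fbn1 was -0.30 with an interval of -1.08 to 0.48. The median 95% interval of the interaction, before adjustment over all genes, reached 0.65 to either side. That width is not a detection limit: calls used adjusted p-values, so larger differences between genotypes could also go uncalled.

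Between genotypes, no member was called. At ZT0, at ZT12 and over both times limma called 0 of 71 members, beside 0% of all genes, and limma-voom also called 0. At an unadjusted p under 0.05 there were 0, 2 and 0 members in those comparisons (ZT0, ZT12 and both), beside 1.12%, 0.951% and 1.28% of all genes. These counts moved with the setting. Without TG ZT12 replicate 2 they were 0, 21 and 12 of 70 members, beside 119, 306 and 272 of 10408 genes. Limma-voom with all libraries gave 1, 8 and 1 of 71, beside 125, 191 and 169 of 10415 genes. The groups did not overlap for 4 of 71 members at ZT0 (5.63%, beside 4.62% of all genes), 1 higher (1.4% of all) and 3 lower (3.22% of all), for 3 of 71 at ZT12 (4.23%, beside 4.79%), all lower (4.26% of all), and for 0 of 71 over both times (beside 0.0384%). The median 95% interval reached 0.46 to either side at a single time and 0.33 over both times on the log2 scale.

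At ZT0, the smallest p-values belonged to the leukocyte integrins. Itga4 had 1.08, 1.09 and 0.550 TPM in TG ZT0 muscle, against 1.18, 5.52 and 1.24 TPM in WT ZT0 muscle, a log2 difference of -0.75 ± 0.36 (SE, limma adjusted p = 0.998). Itgb2 and Itgb7 had log2 differences of -1.28 and -1.26, with WT ZT0 replicate 2 far above the other libraries. Itgb6, the beta chain of an epithelial integrin, had 7.21, 7.60 and 7.33 TPM in TG ZT0 muscle, against 6.501, 6.55 and 6.80 TPM in WT ZT0 muscle. These groups did not overlap, with a log2 difference of 0.14 ± 0.16 (SE, limma adjusted p = 0.998). The member median at ZT0 was -0.04, beside -0.10 for all genes, and 0.05 without WT ZT0 replicate 2, beside 0.02 for all genes.

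At ZT12, 66 of 71 members had a log2 difference below 0 in TG against WT muscle, beside 76.6% of all genes, with a member median of -0.15, beside -0.07 for all genes. Fbln1, a fibulin of basement membranes and elastic fibres, had the smallest p. It had 2.31, 5.16 and 2.92 TPM in TG ZT12 muscle, against 6.40, 5.27 and 5.05 TPM in WT ZT12 muscle. The groups overlapped by 1 library, TG replicate 2, and the log2 difference was -0.60 ± 0.23 (SE, limma unadjusted p = 0.0215, adjusted p = 1.00). Col14a1 followed with -0.53 ± 0.24 (SE, limma unadjusted p = 0.0445, adjusted p = 1.00). Loxl2, Fbln5 and Itgb7 were lower in all 3 TG libraries than in all 3 WT libraries. The member median depended on single libraries: it was 0.02 without TG ZT12 replicate 1 (0.04 for all genes), with 37 members above 0, and -0.33 without TG ZT12 replicate 2 (-0.17 for all genes). In the authors' deposited table no member had a p-value under 0.05 at either time, with the smallest at 0.144 for Itgb2 at ZT0 and 0.361 for Timp2 at ZT12.

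Genes that work with the members were counted from 6 lists, and none of their genes was called in any comparison. Between ZT12 and ZT0 over both genotypes, 40.6% of all genes were above 0, with a median of -0.03. Of 18 collagen processing genes, 13 were above 0 in that comparison, with a median of 0.05. Of 20 proteoglycan genes 16 were above 0 (median 0.10), of 31 matricellular and other glycoprotein genes 25 (median 0.13), and of 12 genes of plasminogen and other proteases 9 (median 0.07). Of 23 genes of the cell side of integrin adhesion, which hold Itgb1bp2 as well, 12 were above 0 (median 0.02), and of 24 TGF-beta and BMP genes 8 were (median -0.06). The smallest adjusted p of the lists in that comparison was that of Plat, tissue plasminogen activator, which averaged 3.71 ± 0.913 TPM at ZT12 and 2.11 ± 0.398 TPM at ZT0 (SD, n = 6 each), a log2 difference of 0.58 ± 0.12 (SE, limma adjusted p = 0.0543). In TG against WT muscle at ZT12 the medians were -0.21, -0.23, -0.35, -0.22, -0.07 and -0.14 in that order of lists, beside -0.07 for all genes. Limma called 0 genes of the lists. In the same order, 3, 3, 6, 3, 0 and 0 of them had an unadjusted limma p under 0.05, beside 0.951% of all genes. The values of the lists were not computed without TG ZT12 replicate 1.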

How the data were processed

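The authors deposited a table of TPM values for 10475 genes in the 12 libraries, and 2 comparison tables of TG against WT, 1 per time. Per the file headers, the comparison tables also hold the authors' log2 fold changes, p-values and adjusted p-values. Those log2 values are drawn strongly towards 0 (from -0.09 to 0.09 for the members) and are quoted here only for their p-values. Per the submitters' processing notes, bcl2fastq, STAR, HOMER 4.11.1 and DESeq2 were used with mm10, with no order or role given. Per the labels' protocols, the libraries came from poly(A) RNA and a kit that does not mark strand.

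The 10415 genes that reached 1 TPM in 3 or more libraries entered limma 3.58.1, run with a mean-variance trend under R 4.3.3. Its input was log2(TPM + 1), its model 4 group means over 12 libraries, with 7 contrasts and Benjamini-Hochberg adjustment over all genes. Whole reads were recovered from TPM and transcript length (98.4% to 98.7% of values under 500 reads lay within 0.1 of a whole read) and used for depth and for limma-voom as an alternative. The fit was tested on simulated data. Python 3.11.15, pandas 2.3.3, numpy 2.4.6 and matplotlib 3.10.9 were used for tables and figures.

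The members, roles, gene lists and marker lists were chosen with earlier results of these data known. Members were named if called, if among the 10 smallest p-values of a genotype contrast or of the time contrast over both genotypes, if the highest of their role, or if among the 10 highest overall (38 members). Others named for groups that do not overlap, for a ratio or as an illustration of a role were chosen after their values were seen. The alternatives were 2 other scalings, no filter or 5 TPM, pseudocounts of 0.1 and 5 TPM, limma-voom, a replicate block, the 2 groups alone and each library left out. A depth covariate, and median-of-ratios scaling without 2 libraries, were added after seeing the data. Exon overlaps were read from GENCODE M21 (basic), and promoters from RefSeq.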

Additional observations from a re-analysis of the deposited data

How the results depend on the processing

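Over 21 other settings, the depth covariate not among them, Col5a3, Fbn1, Timp4 and Adamtsl4 stayed called between ZT12 and ZT0 over both genotypes in all 21 (highest adjusted p 0.0081, 0.0257, 0.0419 and 0.0438), and Loxl2 in 15 of the 20 that tested it. No value that was called changed sign. For members called over both genotypes (5), the count was 8 with median-of-ratios scaling, upper-quartile scaling and limma-voom, 0 with the depth covariate, 15 when the libraries that stood apart (TG ZT12 replicate 1, WT ZT0 replicate 2) were both dropped, 13 when these were left out with median-of-ratios scaling, and 4 to 7 with 1 library left out. In TG (1) it was 3, 3 and 3 under those scalings and voom, 0 with the depth covariate, a pseudocount of 5 TPM or the 2 groups alone, 4 and 5 without both libraries, and 0 to 2 with 1 left out. In WT (0) it was 4, 4 and 4, 1 with no filter, a pseudocount of 0.1 TPM or the 2 groups alone, 4 and 5 without both libraries, and 0 to 2 with 1 left out. For all genes called over both genotypes (92), the counts were 204 (median-of-ratios), 191 (upper-quartile), 194 (voom), 2 (depth covariate), 420 (without both libraries), 406 (with median-of-ratios too) and 47 to 157 (1 left out). In TG (16) they were 31, 29, 28, 2, 71, 103 and 6 to 21, and 3 with the 2 groups alone. In WT (12) they were 55, 47, 56, 0, 72, 92 and 4 to 35. TG against WT at ZT0 (0) gave 1 with the 2 groups alone and 0 to 1 with 1 left out, and at ZT12 (0) 2 without both libraries and 1 with median-of-ratios too. The cause of these changes was not tested. With the depth covariate, the member median between ZT12 and ZT0 was -0.16 in WT, beside -0.49 for all genes. Over both genotypes it was -0.14, beside -0.38 for all genes. No clear pairing by replicate number was seen, which cannot exclude shared handling. Over 18 pairs of the same number r ranged from -0.348 to 0.29 (median 0.0629, and -0.0157 between unlike numbers). The best match of a library had its own number in 5 of 12 cases. With the replicate block, members called were 2 in WT (Col5a3 and Fbn1), 1 in TG and 5 over both genotypes. All genes called were 15, 18 and 96 in that order. Over both genotypes, 25 members had an unadjusted p under 0.05 with the block in place of 18, and 799 of all genes in place of 708. For single genes, 1765 results kept their call or stayed uncalled within the SE of the main value, with no check of sign for the uncalled ones. A further 62 passed the threshold, 23 lost it, and 112 stayed uncalled but moved by at least that SE. With 3 libraries a group, groups are too small for a search for outlying libraries, and members under 2 TPM (14) rest on few reads, the least being 7 for Mmp3.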
